A study of Mus musculus with 68 samples.

Results

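10 long noncoding RNAs were followed in mouse embryonic fibroblasts (MEFs) exposed to tunicamycin (TM), a drug that blocks N-glycosylation and so causes misfolded proteins to accumulate in the endoplasmic reticulum (ER). They were chosen by name: 7 snoRNA host genes (Snhg1, Snhg3, Snhg5, Snhg6, Snhg8, Snhg12 and Gas5) and 3 other noncoding RNAs (2410006H16Rik, 5430416N02Rik and 9430008C03Rik). The choice was made with earlier results of these data known. Of these 10, 8 were listed in the tables of the founder strains, which hold 13197 genes, and the same 8 in the tables of the F1 crosses, which hold 12803. Snhg6 and Snhg8 were not listed under the identifiers used and are not analysed here, which left 5 host genes and 3 other noncoding RNAs.

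The study treated primary MEFs for 4 h with TM at 2 ug/ml or with 0.1% DMSO alone (control) and sequenced mRNA, and the tables hold the 68 libraries kept after the authors dropped some that grouped away from their treatment. The 8 founder strains of the Collaborative Cross gave 40 libraries: 129S1Sv/ImJ (129), A/J (A), C57BL/6J (B6), CAST/EiJ (CAST), NOD/ShiLtJ (NOD), NZO/H1LtJ (NZO), PWK/PhJ (PWK) and WSB/EiJ (WSB). The other 28 libraries came from 5 F1 crosses with a B6 mother, named x129, xCAST, xNOD, xNZO and xWSB after the father's strain. Each genotype had 2 or 3 libraries per treatment. The cells of a genotype were 1 mixture from female embryos of a single litter, and replicates were wells of that mixture treated in parallel. The spread between replicates, and every p-value, is therefore that between wells, and a difference between strains rests on 1 mixture per strain. The age of the embryos is not given in the sources used here.

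Small nucleolar RNAs (snoRNAs) guide the chemical modification of ribosomal and other RNAs: box C/D snoRNAs direct methylation, and box H/ACA snoRNAs direct pseudouridylation. In mammals most of them are cut from introns, and a host gene is one whose introns carry them. The spliced exons of a noncoding host code for no conserved protein, and the spliced RNAs of Gas5 and other hosts are known to be broken down by nonsense-mediated decay (NMD) when they are translated. Host genes often begin transcription within a run of pyrimidines, the 5′ terminal oligopyrimidine tract that they share with ribosomal protein genes. Gas5 was named for its accumulation in growth-arrested cells. The libraries measure polyadenylated host RNA, so the values are of the hosts and not of the short snoRNAs. Reads of unspliced and spliced host RNA cannot be told apart in them.

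The annotation (GENCODE M21, GRCm38) did not divide the 8 RNAs the way the chosen groups do. Gas5 (chromosome 1, 161034422 to 161038539, plus strand) carried 9 annotated snoRNA loci, Snhg1 (chromosome 19, 8723475 to 8726443, plus) 8, Snhg12 (chromosome 4, 132308623 to 132311024, plus) 4, Snhg5 (chromosome 9, 88521050 to 88522929, minus) 2 and Snhg3 (chromosome 4, 132348014 to 132353686, minus) 2. Among the others, 2410006H16Rik (chromosome 11, 62602877 to 62604807, plus) carried Snord49b, Snord49a and Snord65 and is tagged as a noncoding host there. 9430008C03Rik (chromosome 2, 158353700 to 158361580, minus) also carried 3 snoRNA loci, is tagged as a noncoding host too and is named Snhg17 in that annotation. Only 5430416N02Rik (chromosome 5, 100420842 to 100429535, minus) carried 0. The tables give Snhg1, Snhg5 and 5430416N02Rik under older identifiers that the annotation no longer holds (ENSMUSG00000090867, ENSMUSG00000032424 and ENSMUSG00000084877). Their positions are those of the present models of the same name, which may differ from the models that were counted.

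The snoRNAs below show what the hosts carry, since the tables hold the host RNA only. Capitals mark box C (TGATGA) and box D (CTGA) of the C/D class and the ACA box of the H/ACA class, and the sequences are GENCODE transcripts written as DNA on the strand of the host. Snord50a and Snord50b of Snhg5 are 72 bases each.
Snord50a in Snhg5 (chr9:88521529-88521600, minus strand): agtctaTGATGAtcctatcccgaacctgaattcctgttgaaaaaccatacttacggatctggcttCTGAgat
Snord50b in Snhg5 (chr9:88521797-88521868, minus strand): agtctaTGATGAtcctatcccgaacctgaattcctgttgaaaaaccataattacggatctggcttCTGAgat
Snord47 in Gas5 (chr1:161038082-161038158, plus strand): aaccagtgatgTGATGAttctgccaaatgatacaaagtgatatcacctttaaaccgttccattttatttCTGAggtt
Snord49a in 2410006H16Rik (chr11:62603450-62603521, plus strand): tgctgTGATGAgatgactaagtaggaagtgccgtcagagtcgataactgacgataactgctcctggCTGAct
Snord99 in Snhg12 (chr4:132310691-132310764, plus strand): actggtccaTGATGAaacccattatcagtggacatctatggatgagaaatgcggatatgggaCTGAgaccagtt
Snora61 in Snhg12 (chr4:132310240-132310369, plus strand): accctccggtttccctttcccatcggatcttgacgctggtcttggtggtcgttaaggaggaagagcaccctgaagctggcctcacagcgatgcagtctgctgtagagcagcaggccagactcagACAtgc

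The promoter windows below are shown because most of the members were raised by TM and because host genes are known for a pyrimidine start. Each runs from 90 bases before to 50 bases after the start that RefSeq gives (GRCm38.p6), 5′ to 3′ on the gene's strand, and capitals mark the longest run of C and T that begins within 20 bases of that start. RefSeq gives 2 starts for Gas5 and for 9430008C03Rik, and the window of the second is shown for Gas5 and that of the first for 9430008C03Rik.
Snhg1 (chr19:8723397-8723536, plus strand): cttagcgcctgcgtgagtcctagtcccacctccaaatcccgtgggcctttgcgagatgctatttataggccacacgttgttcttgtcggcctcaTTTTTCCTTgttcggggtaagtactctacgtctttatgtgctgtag
Snhg5 (chr9:88522848-88522987, minus strand): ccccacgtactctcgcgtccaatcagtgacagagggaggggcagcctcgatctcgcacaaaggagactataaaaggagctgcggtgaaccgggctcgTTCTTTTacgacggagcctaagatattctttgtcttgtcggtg
Snhg12 (chr4:132308588-132308727, plus strand): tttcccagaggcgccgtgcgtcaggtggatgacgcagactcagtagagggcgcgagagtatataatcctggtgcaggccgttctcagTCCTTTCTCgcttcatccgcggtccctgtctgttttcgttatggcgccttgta
Gas5 (chr1:161035076-161035215, plus strand): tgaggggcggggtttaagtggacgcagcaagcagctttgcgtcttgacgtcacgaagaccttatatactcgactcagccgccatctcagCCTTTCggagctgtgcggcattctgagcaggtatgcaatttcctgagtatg
Snhg3 (chr4:132353637-132353776, minus strand): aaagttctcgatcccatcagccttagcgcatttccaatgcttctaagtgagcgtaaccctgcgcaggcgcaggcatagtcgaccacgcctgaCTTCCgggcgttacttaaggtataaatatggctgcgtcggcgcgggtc
2410006H16Rik (chr11:62602787-62602926, plus strand): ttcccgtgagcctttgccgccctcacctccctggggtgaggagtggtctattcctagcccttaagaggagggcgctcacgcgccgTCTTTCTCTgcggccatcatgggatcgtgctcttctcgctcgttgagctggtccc
9430008C03Rik (chr2:158361473-158361612, minus strand): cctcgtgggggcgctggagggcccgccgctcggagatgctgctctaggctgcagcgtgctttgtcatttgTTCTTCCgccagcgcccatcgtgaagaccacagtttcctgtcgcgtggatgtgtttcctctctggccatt
5430416N02Rik (chr5:100429486-100429625, minus strand): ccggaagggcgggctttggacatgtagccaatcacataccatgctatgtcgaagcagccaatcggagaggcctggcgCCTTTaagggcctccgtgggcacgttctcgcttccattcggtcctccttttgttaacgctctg
A run of at least 7 pyrimidines began within 20 bases of a start in 5 of the 8 RNAs (Snhg1, Snhg5, Snhg12, 2410006H16Rik and 9430008C03Rik). It did so in 26% of the 32851 mouse promoter windows. Of these 5 RNAs, the run spanned the annotated start itself in Snhg12 and 2410006H16Rik only. In the window shown for 9430008C03Rik it began 20 bases before the start and ended before it. In Gas5 a run of 6, shorter than the cutoff, spanned the second start. Motifs were searched on both strands in 250 bases before to 50 bases after each start, where the hits can overlap. The cAMP response element TGACGTCA was found in 1 of the 8, Gas5, against 1.79% of all windows, and its shorter core TGACG in Gas5 and Snhg12, against 20.8%. CCAAT was found in Snhg3, Snhg5 and 5430416N02Rik, against 37.4% of all windows, and TATAA in 5 of the 8, against 24.9%. The ER stress response element (ERSE) was in 0 of the 8 and 0.119% of all windows, the element TGATGNAA bound by C/EBP and ATF factors in 0 of the 8 and 3.97%, and the E-box CACGTG in 0 of the 8 and 7.15%. These are counts of letters in a window, and a gene with several starts had several windows in which a motif could be found.

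Levels are given as normalised RPM, the reads on a gene scaled by the authors to library size and not divided by gene length, so that levels of single genes are not compared with each other. TM acted in every genotype. Hspa5, the ER chaperone BiP, was raised in 8 of 8 strains and 5 of 5 crosses, by 7.08 fold on average in the strains, and Ddit3, the stress transcription factor CHOP, was raised in the same number by 14.9 fold on average. In the 66 libraries whose whole reads were marked as recovered from the values, the founder set had 7091923 to 21530282 reads on genes and the F1 set 6442976 to 29528457. All 11 fibroblast markers were listed, with a summed level of 17134 to 55108 normalised RPM over the founder libraries. The summed level, which is not per length either, was 7.44 to 69.2 for the 9 listed of 10 myeloid markers, 1.67 to 19.9 for 5 endothelial markers and 23.8 to 132.1 for the 4 listed of 5 epithelial markers, and no listed marker was at 0 throughout. The median library had a summed fibroblast level of 37499.6 in control and 26850.1 with TM in the strains, and of 24539.7 and 21989 in the crosses. The summed myeloid markers were lower with TM than in control cells on average in 8 of 8 strains, though in WSB the controls were at 8.53 and 36.9 against 7.44 to 7.65 with TM. The part of these shifts in the results below was not tested. In RNA from a whole well, a smaller number of cells of 1 type and less RNA per cell cannot be told apart.

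7 of the 8 noncoding RNAs were higher with TM in the mean of every genotype, as were 20.4% of all genes in the strains and 21.8% in the crosses, and Snhg3 was not. On average over the 8 founder strains, 5430416N02Rik was 4.32 fold higher, Snhg12 3.91 fold, Snhg5 3.41 fold, Snhg1 3.14 fold, 9430008C03Rik 2.78 fold, 2410006H16Rik 2.14 fold and Gas5 1.84 fold, while Snhg3 was at 1.12 fold. A gene was called raised where limma gave a Benjamini-Hochberg adjusted p below 0.01 over all genes and a change of at least 1.5 fold. By this rule 34 of the 64 pairs of RNA and strain were raised and 0 were lowered, where 2.4% of all gene and strain pairs were raised and 1.55% lowered. The study had already named Snhg1, Snhg12, 2410006H16Rik, 5430416N02Rik and 9430008C03Rik as upregulated in all 8 strains of these data. It also named Snhg5 as raised in xCAST. Counts of raised or separated pairs, here and below, are thus no independent support for a rise, and the shares of all genes stand beside them as description. No pair was lower at an unadjusted p below 0.05 or by edgeR, which raised 30 pairs. In the F1 crosses 27 of the 40 pairs were raised and 0 lowered, where 2.54% of all pairs were raised and 1.47% lowered, and again no pair was lower at an unadjusted p below 0.05 or by edgeR, which also raised 27. A single fit over all F1 libraries raised 30 of the 40 (3.39% of all pairs).

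All TM libraries lay above all control libraries in 8 of 8 strains for Snhg1, Snhg5, Snhg12, 2410006H16Rik, 5430416N02Rik and 9430008C03Rik, in 7 for Gas5 and in 2 for Snhg3, where 22.5% of all gene and strain pairs were so. In the crosses this held in 5 of 5 for Snhg1, Snhg5, Snhg12, 5430416N02Rik and 9430008C03Rik, in 4 for Gas5 and 2410006H16Rik and in 0 for Snhg3, where 19.4% of all pairs were so. The 6 RNAs that separated in every strain were also at least 1.5 fold higher in each of them, as were 2.06% of all genes. Gas5 was not, with 1.45 fold in CAST and 1.48 fold in NOD.

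**Figure D1:**
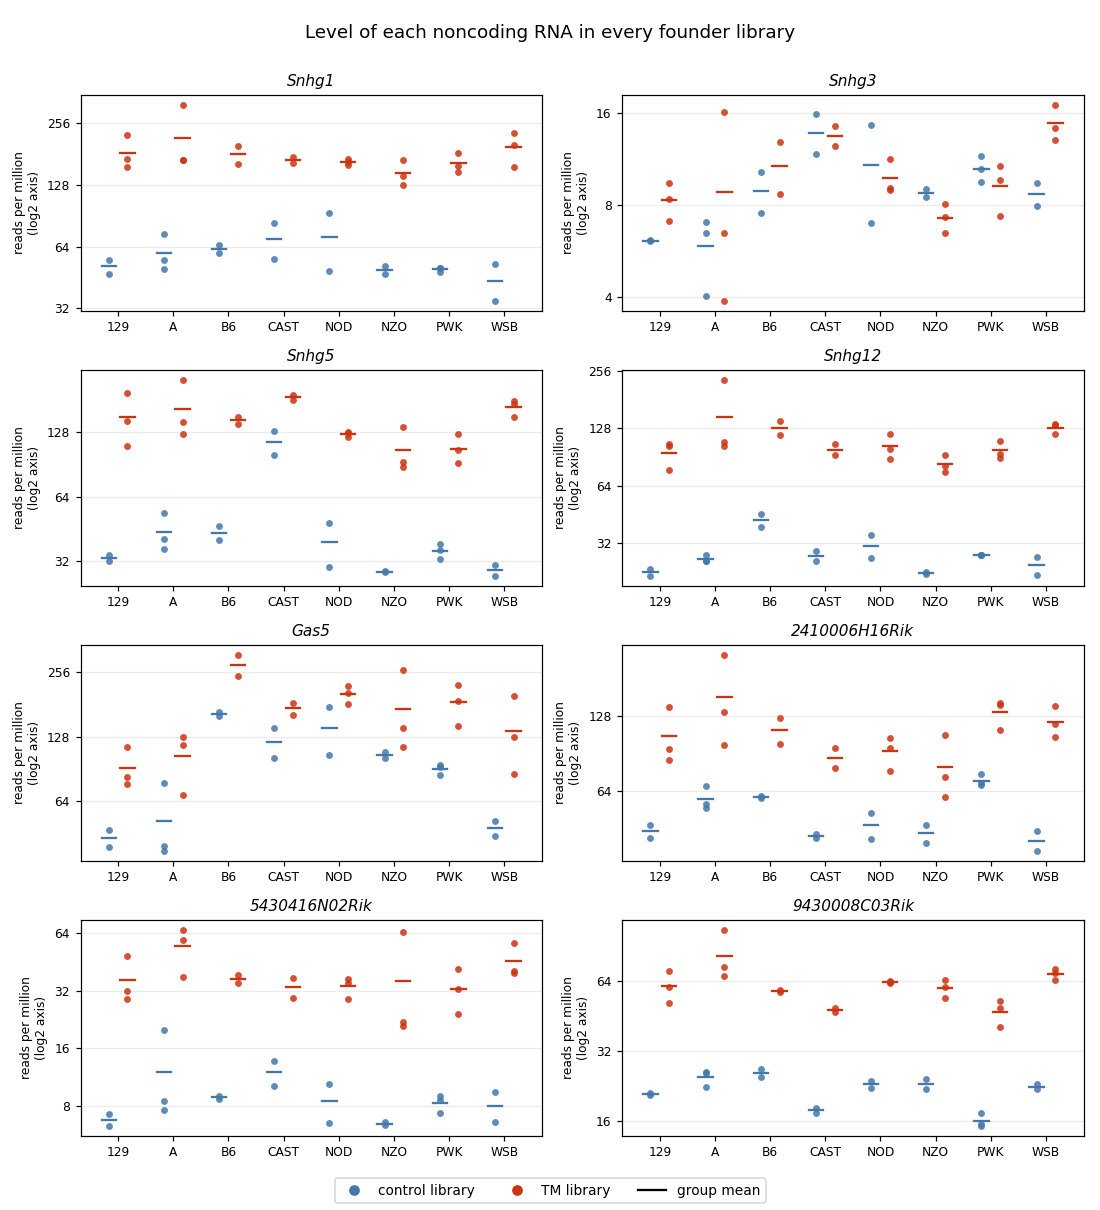
Level of the 8 noncoding RNAs in every founder library, in normalised RPM on a log2 axis, with 1 point per library, control in blue, TM in red and a bar at each group mean. In 7 panels the TM points lie above the control points in 7 or 8 of the 8 strains, and in the Snhg3 panel they do so in 2 strains.

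The number of RNAs called differed between strains, and so did the spread between wells. In B6, PWK and WSB 7 of the 8 were raised, where 5.04%, 6.36% and 2.85% of all genes were. In CAST 5 were raised (2.54% of all genes), in NOD 4 (1.45%), in 129 3 (0.315%), in NZO 1 (0.32%) and in A 0 (0.346%). The lowered genes, of which none was among the 8 by limma, by edgeR or at an unadjusted p below 0.05, were 3.22% of all genes in B6, 4.3% in PWK, 4.2% in WSB, 0.478% in CAST, 0.165% in NOD, 0.00787% in 129, 0.0078% in NZO and 0.00786% in A. In A the median change of the 8 RNAs was 1.76 on the log2 scale, second only to WSB at 1.89, and against 1.34 in B6. The median residual SD over all genes was 0.350 in A, the largest of the 13 genotypes, and 0.105 in B6, the smallest. In A 7 of the 8 RNAs had an unadjusted p below 0.05, and edgeR raised 0 of them. When all founder libraries were fitted together, so that the strains shared 1 estimate of the spread, 43 of the 64 pairs were raised (3.26% of all pairs), with 6 of 8 in A and 5 in NZO, but 5 in B6 and 3 in CAST. Without the trend of the variance on the mean level, 10 of the 64 pairs were raised. Leaving out TM replicate 3 of NZO took the strain from 1 to 6 RNAs raised and leaving out any other NZO library to 0. Leaving out TM replicate 2 of 129, control replicate 2 of 129 or control replicate 3 of 129 took that strain from 3 to 0, and without TM replicate 1 or 3 of 129 it had 5 or 6. Leaving out TM replicate 3 of NOD took NOD from 4 to 1, and leaving out control replicate 1 of NOD took it to 7.

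Snhg12, which carries Snora16a, Snora44, Snora61 and Snord99, was raised in 7 of the 8 strains. Its control level ran from 21.5 to 45.6 normalised RPM with a median of 26.8 over 18 founder libraries, and with TM from 75.3 to 230.8 with a median of 104.8 over 22. The lowest TM library thus lay above the highest control library of all strains. The share of all genes that separate in this way over all strains was not counted. In NZO, the strain with the lowest levels, the control libraries were at 21.99 and 22.5 and the TM libraries at 75.3, 81.5 and 93.1. The log2 change there was 1.90 ± 0.14 (SE), with an adjusted p of 0.00625 in limma. The smallest change was 1.61 ± 0.10 (SE) in B6 and the largest 2.40 ± 0.16 (SE) in WSB.

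5430416N02Rik, the RNA without snoRNA loci, had the largest average change of the 8 RNAs and, by the median library, the fewest reads but for Snhg3, with 45 to 1084 per founder library. Its control level ran from 6.31 to 19.9 normalised RPM with a median of 8.50, and its TM level from 21.0 to 66.9 with a median of 37.3. The highest control library was replicate 1 of A, whose other control libraries were at 7.66 and 8.45, and the lowest TM library was in NZO. The log2 change ran from 1.48 ± 0.18 (SE) in CAST, with an adjusted p of 0.00138, to 2.50 ± 0.22 (SE) in WSB, with an adjusted p of 1.8e-04. It was raised in 6 strains, and in A and NZO its adjusted p was 0.0346 and 0.0831. In NZO the TM libraries were at 21.0, 21.9 and 65.2, and without the highest of them, TM replicate 3, the RNA was raised there too.

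Snhg1, which carries the second largest number of snoRNA loci, ran from 34.9 to 93.6 normalised RPM in control libraries, with a median of 51.9, and from 126.9 to 313.6 with TM, with a median of 168.3. Control and TM libraries did not overlap within or between strains, and the share of all genes with no overlap between strains was not counted. Its log2 change was 1.65 ± 0.29 (SD, n = 8 strains), from 1.29 in NOD to 2.17 in WSB. In NOD the control libraries were at 93.6 and 48.6 and the TM libraries at 159.6, 164.6 and 170.9, and the adjusted p was 0.0155. Without control replicate 1 of NOD, the higher one, Snhg1 was raised in NOD.

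9430008C03Rik, the RNA now named Snhg17, had the most even change of the 8 over the strains. Its control level ran from 15.2 to 26.7 normalised RPM, with a median of 22.1, and its TM level from 40.4 to 106.5, with a median of 61.6. The highest control library lay below the lowest TM library, and the share of all genes for which this holds over all strains was not counted. The log2 change was 1.48 ± 0.17 (SD, n = 8 strains) in the founder strains and 1.27 ± 0.09 (SD, n = 5 crosses) in the crosses, and the SD over genotypes was smaller than that of any other of the 8 RNAs in both sets. In 129, A and NZO, where the RNA was not called, the adjusted p was 0.0112, 0.0123 and 0.0132.

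2410006H16Rik and Gas5 rose least among the RNAs that were called in any strain. 2410006H16Rik, which carries Snord49a, Snord49b and Snord65, ran from 36.6 to 74.4 normalised RPM in control libraries and from 60.3 to 225.7 with TM. It was raised in B6, CAST, PWK and WSB, with a log2 change of 1.10 ± 0.25 (SD, n = 8 strains). Gas5, the host with the most snoRNA loci, ran from 37.6 to 177.2 in control libraries and from 68.7 to 309.5 with TM, so that over all strains its control and TM libraries overlapped. Its log2 change was 0.88 ± 0.31 (SD, n = 8 strains), from 0.53 ± 0.16 (SE) in CAST to 1.43 ± 0.28 (SE) in WSB. It was raised in B6, PWK and WSB. In WSB the control libraries were at 44.1 and 51.9 and the TM libraries at 85.5, 127.5 and 198.0, and leaving out TM replicate 1 or either control library of WSB ended that call. In A, 1 TM library, at 68.7, lay within the range of the controls, 37.6 to 77.7.

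Snhg3, the host of the H/ACA snoRNAs Snora73a and Snora73b, was raised or lowered in 0 of the 8 strains by limma and by edgeR, with 1 strain (WSB) at an unadjusted p below 0.05. It was also the RNA with the fewest reads by the median library, with 45 to 306 per founder library. In 129 the control libraries were at 6.08 and 6.14 normalised RPM and the TM libraries at 8.34, 9.43 and 7.06. In WSB the control libraries were at 7.94 and 9.41 and the TM libraries at 16.99, 14.3 and 12.995. In NZO the control libraries were at 8.98 and 8.48 and the TM libraries at 7.29, 8.04 and 6.48. All TM libraries thus lay above the controls in 129 and WSB and below them in NZO. In B6 the controls were at 10.3 and 7.50 and the TM libraries at 8.68 and 12.8, and in CAST the controls were at 15.8 and 11.7 and the TM libraries at 12.5 and 14.5. In NOD the controls were at 14.6 and 6.9999 and the TM libraries at 9.11, 11.3 and 8.92. In these strains, and in A and PWK, the control and TM libraries overlapped. The log2 change was 0.16 ± 0.35 (SD, n = 8 strains), from -0.27 ± 0.17 (SE) in NZO to 0.76 ± 0.21 (SE) in WSB, where the adjusted p was 0.0302. Snhg3 overlaps Rcc1, on the same strand, and Gm17300, so its reads may be shared with these genes. Counting is not stated to use strand, and strand would not separate Snhg3 from Rcc1.

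**Figure D2:**
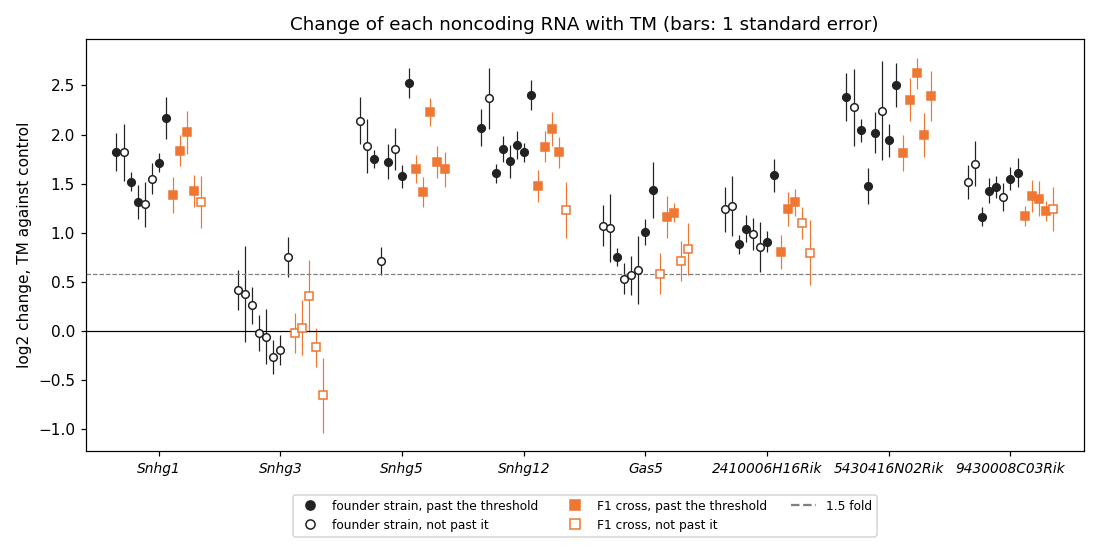
Log2 change with TM of the 8 noncoding RNAs (x axis), with 1 point per genotype, founder strains as black circles and F1 crosses as orange squares, from 129 to WSB and from x129 to xWSB within each RNA, and bars of 1 standard error. Filled points passed the threshold, 34 of 64 in the strains and 27 of 40 in the crosses, and Snhg3 has no filled point and lies around 0.

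The host genes were compared with the other noncoding RNAs by the median log2 change of each group within a genotype. In the founder strains the median of the 5 hosts averaged 1.56 and that of the 3 others 1.48, a difference of 0.08 ± 0.39 (SD, n = 8 strains) that was above 0 in 6 strains and ran from -0.72 in CAST to 0.56 in WSB. In the crosses the difference was 0.22 ± 0.27 (SD, n = 5 crosses), above 0 in 4. The median of all genes lay between -0.06 and 0.01 in every genotype. The spread between genotypes was larger than either difference, and no test was made, since the members of a group are not replicates. The sign depended on the grouping. With the mean of the members in place of the median, the difference was -0.28 in the strains and -0.35 in the crosses. With 2410006H16Rik among the hosts, where the annotation puts it, the difference was -0.46 and -0.48. The annotation puts 9430008C03Rik there too, and with both among the hosts, which leaves 5430416N02Rik alone, the difference was -0.71 and -0.97. The last grouping was chosen after seeing the data and the annotation.

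The F1 crosses, whose tables were scaled apart from those of the founders, gave a like picture, with Snhg5 and Snhg12 in the reverse order. 5430416N02Rik was 4.72 fold higher with TM on average, Snhg5 3.32 fold, Snhg12 3.23 fold, Snhg1 3.03 fold, 9430008C03Rik 2.42 fold, 2410006H16Rik 2.07 fold and Gas5 1.87 fold, and Snhg3 was at 0.94 fold. Snhg5 and 5430416N02Rik were raised in 5 of 5 crosses, Snhg1, Snhg12 and 9430008C03Rik in all but xWSB, 2410006H16Rik in x129, xCAST and xNOD, and Gas5 in xCAST and xNOD. Of the 8 RNAs 6 were raised in x129 (4.88% of all genes), 7 in xCAST (2.52%), 7 in xNOD (3.69%), 5 in xNZO (1.44%) and 2 in xWSB (0.185%), and of all genes 1.36%, 1.2%, 4.6%, 0.152% and 0.0161% were lowered. In xWSB the median residual SD over all genes was 0.31, the largest among the crosses. Snhg3 was raised or lowered in 0 of 5 crosses by limma and by edgeR, with 0 at an unadjusted p below 0.05. In xNOD, where 7 RNAs were raised with 3 control and 2 TM libraries, 1 or 0 remained called when any control library was left out. The call of 2410006H16Rik in x129 was lost without any 1 of 5 of the 6 libraries, all but TM replicate 2, and that of Gas5 in xCAST without TM replicate 2 or either control library. In xNZO 1 of 5 remained without TM replicate 3. In xWSB 1 or 0 remained without any TM library or without control replicate 2 or 3.

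**Figure D3:**
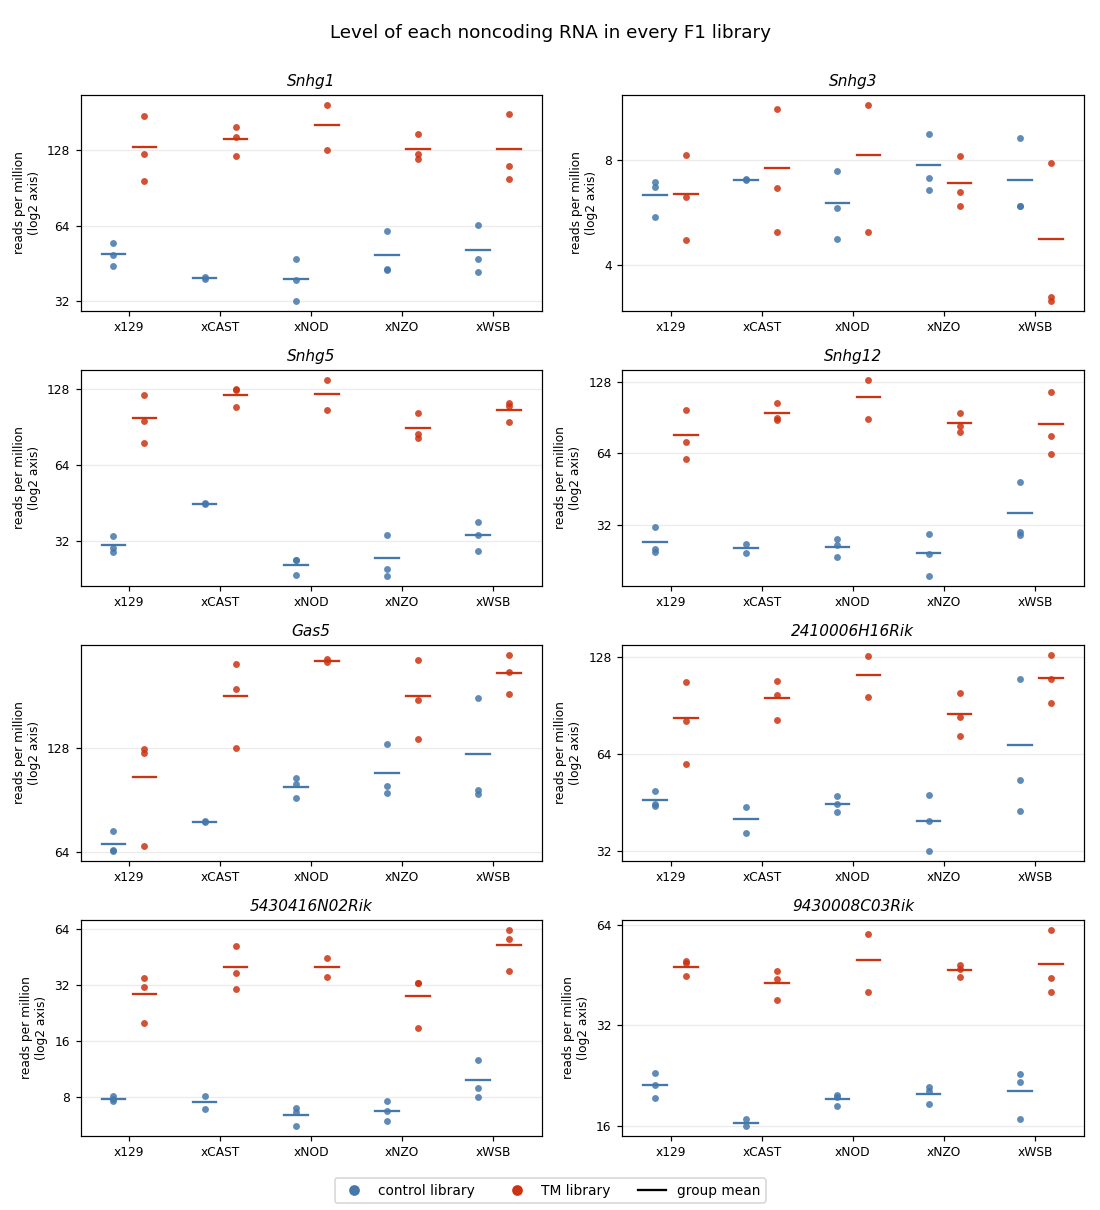
Level of the 8 noncoding RNAs in every F1 library, in normalised RPM on a log2 axis, drawn as for the founder strains. Apart from Snhg3, the TM points lie above the control points in 5 of 5 crosses, except for 1 cross each of Gas5 and 2410006H16Rik.

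The change of Snhg5, the host of Snord50a and Snord50b, varied most between the strains. In CAST the control libraries were at 129.5 and 99.7 normalised RPM and the TM libraries at 191.5 and 181.5. In WSB the control libraries were at 27.3 and 30.6 and the TM libraries at 179.7, 149.9 and 173.0. CAST was the highest strain in control cells, apart from every other strain, and WSB one of the 2 lowest, and with TM the CAST libraries still lay above those of WSB. The log2 change was 0.71 ± 0.14 (SE) in CAST and 2.53 ± 0.15 (SE) in WSB.

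In B6 the controls were at 39.9 and 46.7 and the TM libraries at 140.3 and 151.4, in NOD at 48.0 and 30.0 and at 128.2, 121.9 and 126.7, and in NZO at 28.7 and 28.3 and at 92.4, 88.1 and 135.6. In 129 the controls were at 34.2 and 31.9 and the TM libraries at 194.8, 144.5 and 110.2, in A at 53.9, 40.4 and 36.5 and at 124.9, 224.8 and 143.1, and in PWK at 32.6, 36.1 and 38.5 and at 124.8, 91.7 and 105.3. In these 6 strains the log2 change lay between 1.57 in PWK and 2.14 in 129. The highest strain mean was 4.02 times the lowest in control cells and 1.77 times with TM.

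With the median control of each strain as a fixed reference, the change of Snhg5 differed between the 8 strains at an adjusted p of 0.0026 (moderated F test in limma, 22 TM libraries), and it was the only one of the 8 RNAs to pass 0.01, where 2.9% of all genes did. That test takes the control level as known without error, and among genes simulated without a strain effect it called more than its threshold allows, so its adjusted p is not an error rate. In the strain by treatment interaction, which keeps the spread of the controls, its adjusted p was 0.23 (unadjusted 0.00131), 0 of the 8 RNAs passed, 1 (Snhg5) had an unadjusted p below 0.05, and 0.174% of all genes passed. With the replicate number as a block 0 of the 8 and 0.0% of all genes passed, and Snhg5 had an unadjusted p of 0.144. Without either TM library of CAST, or without TM replicate 1 of WSB, the first test gave 0.0196, 0.0241 and 0.0116. Among the crosses, the log2 change of Snhg5 was 1.42 ± 0.15 (SE) in xCAST, beside 1.75 ± 0.09 (SE) in B6 and 0.71 in CAST, and 1.65 ± 0.18 (SE) in xWSB, beside 2.53 in WSB. By allele counts over combined replicates, the study reports values in which the share of the B6 allele of Snhg5 in xCAST rose with TM. Allele counts were not examined here. Between the crosses 0 of the 8 RNAs passed (limma, 0.227% of all genes), and 1, Snhg5, had an unadjusted p below 0.05 in this test and in the interaction, which 0.0547% of all genes passed (0.00781% with the replicate number as a block).

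**Figure D4:**
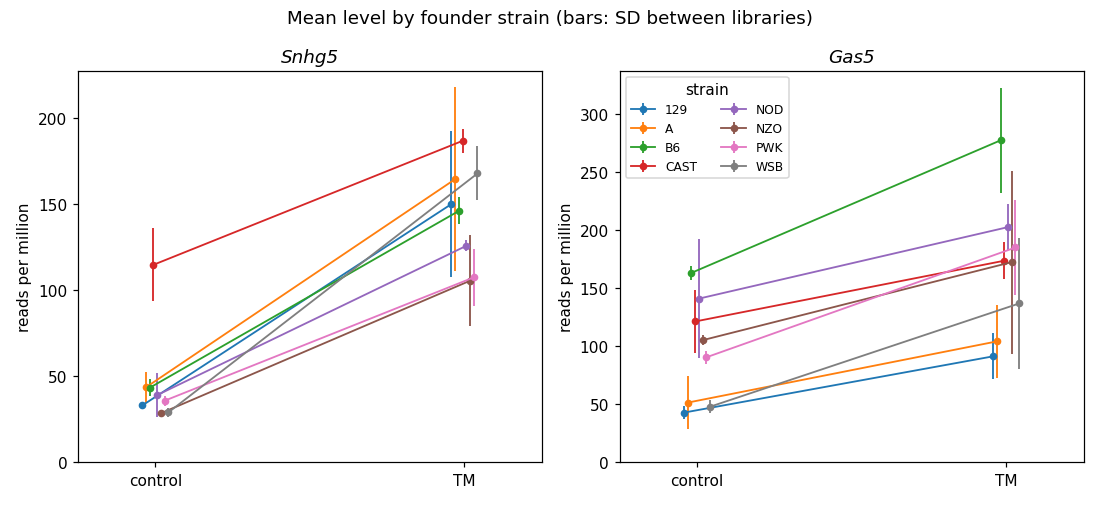
Mean level of Snhg5 and Gas5 in control and TM cells of the 8 founder strains, in normalised RPM, with 1 line per strain and bars of 1 SD between libraries (n = 2 or 3). In CAST, Snhg5 starts from 114.6 in control cells where the other strains start from 28.5 to 43.6, and the Gas5 lines stay spread with TM, from 91.4 in 129 to 277.6 in B6.

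In control cells the level of 5 of the 8 RNAs differed between the founder strains at an adjusted p below 0.01 (moderated F test, 18 control libraries), where 35.8% of all genes did. They were Snhg5 (adjusted p 3.6e-05), Gas5 (1.1e-04), 2410006H16Rik (6.6e-04), 9430008C03Rik (0.00105) and Snhg12 (0.00205). For Snhg3, Snhg1 and 5430416N02Rik the adjusted p was 0.0249, 0.266 and 0.287. The CAST genome differs much from the reference, the authors mapped each strain on its own modified genome, and the part of mapping in the level differences was not tested.

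Gas5 had a wide range of control levels. B6 was highest at 163.4 ± 5.75 (SD, n = 2) normalised RPM, followed by NOD at 141.1 ± 51.0 (SD, n = 2), CAST at 121.4 ± 27.5 (SD, n = 2), NZO at 105.3 ± 4.16 (SD, n = 2) and PWK at 90.6 ± 5.35 (SD, n = 3). A at 51.5 ± 22.6 (SD, n = 3), WSB at 47.98 ± 5.56 (SD, n = 2) and 129 at 42.9 ± 5.60 (SD, n = 2) were lowest. Libraries of neighbouring strains in this order overlapped, except that those of NZO lay above those of PWK, and those of PWK above those of A. The highest strain mean was 3.80 times the lowest in control cells and 3.04 times with TM, when B6, at 277.6, stayed highest and 129, at 91.4, lowest.

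For Snhg5 the order in control cells was CAST (114.6 ± 21.1), A (43.6 ± 9.13), B6 (43.3 ± 4.81), NOD (39.0 ± 12.7), PWK (35.8 ± 2.94), 129 (33.0 ± 1.67), WSB (28.9 ± 2.32) and NZO (28.5 ± 0.28, all SD, n = 2 or 3). The libraries of CAST lay above those of A, and those of 129 above those of WSB, and other neighbours overlapped. Snhg12 was highest in B6, at 42.2 ± 4.71 (SD, n = 2), apart from NOD, the next, at 31.0 ± 6.23 (SD, n = 2), and the libraries of all other neighbours overlapped down to NZO at 22.2 ± 0.33 (SD, n = 2). 2410006H16Rik was highest in PWK, at 70.2 ± 3.69 (SD, n = 3), apart from B6 at 60.5 ± 0.82 (SD, n = 2), and lowest in WSB at 40.2 ± 5.08 (SD, n = 2). 9430008C03Rik was lowest in PWK, at 15.97 ± 1.08 (SD, n = 3), and next lowest in CAST at 17.8 ± 0.64 (SD, n = 2), apart from each other and from 129 at 20.95 ± 0.33 (SD, n = 2). PWK was thus the highest strain for 1 of these RNAs and the lowest for another. Snhg1 and 5430416N02Rik spanned 1.63 and 1.86 times from the lowest strain mean to the highest, and Snhg3 2.36 times, from A at 5.85 to CAST at 13.8.

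In control cells of the F1 crosses, Snhg5 differed at an adjusted p of 0.00963 and was the only one of the 8 RNAs to pass, where 21.4% of all genes did. Its libraries in xCAST, at 45.4 and 44.9, lay above those of all other crosses, which ran from 23.4 to 38.3. The call was lost with a pseudocount of 1, with median-of-ratios scaling, without the trend, and when any 1 of 11 of the 14 control libraries was left out. Gas5 was lowest in x129, at 67.8 ± 4.98 (SD, n = 3), as 129 was among the strains, with an adjusted p of 0.0397 between the crosses. The highest mean, in xWSB, rested on replicate 1, at 177.6, beside 96.4 and 94.3 in the other xWSB controls.

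Neighbours were the nearest genes annotated as protein-coding. Slc3a2 was raised in several strains and the others with founder values in 0. Snhg11, the neighbour of 9430008C03Rik at 14058 bases, was not listed for the founder strains. Slc3a2, which encodes the heavy chain of several amino acid transporters, lies 106 bases from Snhg1 on the opposite strand and was raised in 5 of 8 strains, by 1.19 ± 0.21 (SD, n = 8 strains) on the log2 scale against 1.65 for Snhg1. Without strand, reads where such genes meet cannot be told apart. Rcc1, the guanine nucleotide exchange factor of Ran that overlaps Snhg3, had a mean log2 change of 0.17 and was raised in 0 of 8 strains. Zbtb37 overlaps Gas5 on the other strand and had a mean log2 change of 0.22, raised in 0. Lrrc75a, 77 bases from 2410006H16Rik, was at -0.19, and Trnau1ap, 739 bases from Snhg12, at 0.12, each raised in 0 of 8 strains. Zfp949, 25091 bases from Snhg5, and Sec31a, 4608 bases from 5430416N02Rik, were raised in 0 too, with mean log2 changes of 0.37 and -0.07.

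Other genes of the snoRNA pathway were taken as lists, and the share of pairs raised is given beside that of all genes. Of 14 further noncoding hosts listed, 5 were in the founder tables, and 5 of their 40 gene and strain pairs were raised (12.5%, against 2.4% of all pairs) and 0 lowered (1.55% of all pairs), with a median log2 change of 0.20 against -0.02 over all genes. Zfas1 was raised in 3 strains, by 2.43 fold on average, and Epb41l4aos in 2, by 1.50 fold. Snhg4, Snhg20 and D17H6S56E-5 were raised in 0 strains, with mean log2 changes of 0.17, -0.09 and -0.27. In the crosses 4 of 26 pairs were raised (15.4%, against 2.54% of all pairs) and 0 lowered (1.47% of all pairs). Of the raised pairs 3 were of Zfas1.

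Of 36 protein-coding hosts, 13 of 288 pairs were raised (4.51%) and 1 lowered in the strains, and 14 of 180 raised and 0 lowered in the crosses, where 2.4% and 2.54% of all pairs were raised and 1.55% and 1.47% lowered. The median log2 change was 0.05 and 0.12, against -0.02 and -0.03 over all genes. Taf1d, a subunit of the RNA polymerase I selectivity factor, was raised in 6 strains, by 3.02 fold on average, and Eif4a2, a translation initiation helicase, in 4, by 2.03 fold. Wdr43, a ribosome biogenesis protein, was raised in 2 strains, and Rpl37, a ribosomal protein, was lowered in 1, with a mean log2 change of -0.53. Of 16 proteins of snoRNA particles and their assembly, 6 of 128 pairs were raised (4.69%, against 2.4% of all pairs) and 0 lowered (1.55% of all pairs), with a median log2 change of 0.12. Nop58, a core box C/D protein, was raised in 3 strains, Nufip1, an assembly factor, in 2, and Nop56, another core box C/D protein, in 1, by 1.62, 1.60 and 1.39 fold on average. Nop10, a core H/ACA protein, was not called in any strain, with a mean log2 change of -0.37.

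Of 15 genes of the NMD machinery, 0 of 120 pairs were raised and 1 was lowered in the strains, and 2 of 75 were raised in the crosses, where 2.4% and 2.54% of all pairs were raised and 1.55% and 1.47% lowered. The median log2 change was 0.07 and 0.10. Upf1, the helicase at the centre of NMD, was lowered in 0 strains by this rule and had a log2 change between -0.58 and -0.20. Upf2 and Upf3b, its partners, and Magohb, a subunit of the exon junction complex, were raised in 0 strains, with mean log2 changes of 0.30, 0.29 and 0.37. Of 16 other long noncoding RNAs, 9 were listed, and 5 of 72 pairs were raised (6.94%, against 2.4% of all pairs) and 1 lowered (1.39%, against 1.55%). Pvt1 was raised in 3 strains, by 2.11 fold on average, and Neat1, the scaffold of paraspeckles, in 2, by 1.69 fold. Ftx and Mir22hg were raised in 0 strains, with mean log2 changes of 0.79 and 0.31. These lists were chosen with earlier results of the data known.

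Genes with a similar pattern were sought by the Pearson correlation of mean log2 levels over the 16 groups of strain and treatment, among 13197 genes. The groups share their libraries between the genes compared, and much of the likeness lies in the step from control to TM, so the values are a description. Snhg1 and Snhg12 were most like Taf1d (r = 0.99 and 0.98), the host named above, and 5430416N02Rik was most like Slc3a2, Snhg1 and Taf1d (r = 0.99, 0.98 and 0.98). Snhg12 was next most like Atf4 and Ddit3, transcription factors of the stress response (r = 0.98 for both). 9430008C03Rik was most like Nfil3, a transcription factor raised in 8 of 8 strains (r = 0.99), then Ddit3 and 1810032O08Rik. 2410006H16Rik was most like Spata5, Pdia6 and Atf4 (r = 0.97, 0.95 and 0.95). Snhg5 was most like Rbm34, Timm8a1 and Rsl1d1 (r = 0.96 for each), which were raised in 2, 3 and 3 strains. Gas5 was most like Akap7, Pkn2 and Zzz3 (r = 0.93, 0.91 and 0.91), and these 3 were raised in 0 strains. Snhg3 was most like Akr1c19, Csnk2a1 and Gspt1, at r = 0.85, 0.85 and 0.83, the lowest values of the 8.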

How the data were processed

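The tables hold 68 single-end mRNA libraries, each from a well of MEFs, which the authors kept from a larger number sequenced. Per the labels and the methods, the authors trimmed reads, mapped them with TopHat 1.4.1 to GRCm38 (mm10) modified for each strain, dropped libraries that grouped away from their treatment, and scaled counts with TMM in edgeR. The tool that counted reads, and whether it used strand, are not given in the sources used here. The deposited values are named FPKM, but they are a signal that the authors scaled to library size only: in all 68 libraries the values are whole multiples of what 1 read is worth, within a tolerance of 0.05 reads. In 66 of them the reads were marked as recovered by a separate check, which left out the second TM library of PWK and the first of WSB. The F1 tables also hold rows of reads not on genes (15.47% to 24.15% of the value), which were left out. The authors scaled the founder and F1 tables apart, so no level was set across them. No column belonged to another series.

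From these values, log2(value + 0.1) was fitted per genotype with limma 3.58.1 (R 4.3.3) with a mean-variance trend, over genes at 0.5 or more in at least 2 libraries. Benjamini-Hochberg adjustment ran over all genes, and a call needed an adjusted p below 0.01 and a change of 1.5 fold. The added 0.1 makes a fold understate the change of low genes. The change was compared between genotypes by a moderated F test on log2(TM / median control) and by an interaction term, and control levels by a moderated F test. edgeR 4.0.16 was run on the recovered reads as an alternative, without the 2 libraries not marked as recovered. The block for replicate number was tried as well. The scripts were tested on simulated data, where the F test against the median control called too many genes and the interaction did not. The simulated wells varied to the same degree in every strain, while the median residual SD of the data was 0.105 in B6 and 0.350 in A. How the interaction behaves with such unequal spread was not tested. Tables and plots were made with pandas 2.3.3, matplotlib 3.10.9, scipy 1.17.1 and numpy 2.4.6 under Python 3.11.15. Of the gene identifiers, 13197 were named from reference tables, 43 from the study's supplementary tables, among them Snhg1, Snhg5 and 5430416N02Rik where the annotation lacked them, and 138 had no name.

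The members and lists were chosen with earlier results of these data known. Named were all members, up to 4 genes of each list with the largest mean log2 change over the strains (all further noncoding hosts), Hspa5 and Ddit3, the annotated protein-coding gene nearest each analysed member, and the 3 genes most correlated with each member.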

Additional observations from a re-analysis of the deposited data

Results flagged for a closer look

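The change of Snhg5 with TM differed between the 8 founder strains at an adjusted p of 0.0026 when the median control was taken as a fixed reference (limma), with every strain higher with TM. That test takes the control as free of error and its adjusted p is not an error rate. The interaction, which keeps the spread of the controls, gave an adjusted p of 0.23.

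Snhg3 was not called in any strain, but its libraries separated in opposite directions in 3. Every TM library lay above every control library in 129 (log2 change 0.42) and in WSB (0.76), and below in NZO (-0.27). The adjusted p was 0.271, 0.0302 and 0.446, and in 22.5% of all gene and strain pairs every TM library lay above every control library. Snhg3 lay above in 2 of 8 strains, which is near that share. The share of all pairs with every TM library below was not counted. The opposite separation was not tested in that form, and the interaction over all strains had an unadjusted p of 0.404 for Snhg3. Groups of 2 or 3 libraries were too small to be searched for single libraries far from the rest.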

How the results depend on the processing

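Counts of calls out of 64 founder and 40 F1 pairs, 34 and 27, were within 1.5 times of these values with a pseudocount of 1, no filter, a mean filter, median-of-ratios scaling, 1 fit over a set, edgeR and FDR 5% (50 and 28). Without the variance trend they were 10 and 13. Leaving out 1 library gave 31 to 39 and 20 to 28. The strain effect on the change passed for 1 RNA, for 0 in the interaction, for 0 in the interaction with replicate block, and for 0 to 2 without 1 library. It passed for 0 in the F1 crosses under every alternative run, leave-one-out included (0 to 0). Control levels differed for 5 RNAs between strains (4 to 6 without 1 library). Between crosses they differed for 1, for 2 at FDR 5%, for 0 with a pseudocount of 1, 0 with median-of-ratios scaling, 0 without the trend, and 0 to 2 without 1 library. The causes were not tested.

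Hosts minus other RNAs, 0.08 and 0.22, ran from 0.02 to 0.15 and from 0.18 to 0.26 without 1 library. With the mean of the members the difference was -0.28 in the strains and -0.35 in the crosses, with 2410006H16Rik among the hosts -0.46 and -0.48, and with 9430008C03Rik there too, a grouping chosen after seeing the data, -0.71 and -0.97.

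Single values that changed sign were all of Snhg3. In x129 edgeR gave 0.0044. Without 1 library the log2 change of Snhg3 ran from -0.18 to 0.83 in A, -0.016 to 0.54 in B6, -0.24 to 0.20 in CAST, -0.58 to 0.47 in NOD, -0.22 to 0.18 in x129, -0.28 to 0.30 in xCAST and -0.25 to 0.95 in xNOD.

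Replicate numbers showed no even pairing of the wells, and whether same-numbered wells belong together was not settled by groups this small. Of 29 same-numbered pairs, 7 had a correlation of deviations above 0.1 and 8 below -0.1 (median 0.0204), and only in xWSB were all 3 above 0.1. With the number as a replicate block, calls went from 22 to 32 in the 6 strains sharing at least 2 numbers and from 27 to 24 in the crosses. In B6 and CAST the block could not be fitted. Depth limits Snhg3 most, with 45 to 306 reads per founder library and 42 to 357 per F1 library.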
